A study of Mus musculus with 8 samples.

Results

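Cebpa and Cebpg lie side by side on mouse chromosome 7 and are described here by their chromatin contacts. The loops were chosen by position: those with a 5 kb bin that holds the canonical start site of either gene, and those with both bins within 150 kb of the Cebpa start site. Together these were 119 of the 214313 loops in the union of 4 lists, namely 50 of the 80489 loops of p30 UT and 31 of the 94609 of p30 LPS, with 107 of 158233 for p42 UT and 44 of 78591 for p42 LPS. Both genes were measured through the same 4 lists as the other protein-coding genes, 21757 in all.

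HiChIP ligates DNA ends that lie close together in fixed nuclei and enriches the products with an antibody, here against H3K27ac, an acetylated histone residue found at active promoters and enhancers. The cells were HPC-7, a mouse haematopoietic progenitor line kept in stem cell factor, into which CEBPA had been brought by a retrovirus with a GFP marker, followed by sorting for GFP. One line carried p42, the full-length protein, and the other p30, the shorter isoform that lacks the N-terminal activation region. Each line was left untreated (UT) or given LPS, a bacterial ligand of TLR4, at 100 ng/mL for 2 h, which gave 4 groups of 2 replicates, or 8 libraries. The study's methods describe both a tamoxifen-regulated ERT2 fusion and a constitutive form of each isoform, and the labels do not say which of them these libraries came from. No line without the transgene is among these samples, each line is a sorted population, and the vector holds CEBPA coding sequence. If that insert is of mouse sequence, its reads would map to the Cebpa gene itself; this was not tested, and it touches the bins at 0 and 5 kb below.

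Each list pools its 2 replicates, so no value below has a replicate error. Intervals cover counting error only, and tests compare these libraries, not the conditions. The contacts that entered the caller's model ranged from 14503330 in p30 LPS to 18999991 in p42 UT, and the mean coverage of a bin with an H3K27ac peak from 1939 reads in p42 LPS to 2911 in p42 UT. The p42 UT list was the longest and held 73.8% of the union, against 37.6% in p30 UT, 44.1% in p30 LPS, with 36.7% for p42 LPS. A share of 14.5% of the union was in all 4 lists.

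Cebpa encodes the transcription factor that commits progenitors to the granulocyte and monocyte lineages. In mouse blood cells its transcription depends on a distal enhancer 37 kb downstream of the start site, which binds haematopoietic factors of the RUNX, ETS and GATA families. Cebpg encodes a family member without a classical activation domain, which dimerises with other CEBP proteins and with ATF4. An enhancer acts on a promoter that may lie far away along the DNA, and contact maps are one way to ask which promoter it lies near.

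In GRCm39, Cebpa (ENSMUSG00000034957.11, plus strand) spans 34818718 to 34821353 with its canonical start at 34818728. Cebpg (ENSMUSG00000056216.11, minus strand) spans 34745847 to 34756011 and starts at 34756011. The genes thus point away from each other. Positions are given below as the start of a 5 kb bin relative to the start of the Cebpa bin (34815001 to 34820000). The Cebpg bin (34755001 to 34760000) is at -60 kb, and the bin that holds the position 37 kb downstream of the Cebpa start (34855001 to 34860000) is at 40 kb. The bins at 35, 40 and 45 kb are called the enhancer bins, and the bins at 0 and 5 kb, over which the gene runs, the Cebpa gene bins. The Cebpa gene starts in the bin at 0 kb and ends in the bin at 5 kb, so these bins do not separate its promoter from its body.

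Sequences from the bins of both start sites and from the bin at 40 kb are shown first, read from GRCm39. Contacts are resolved to 5 kb bins and do not show which bases within them are joined. They are the 250 bases before the outermost annotated start of each gene and the 300 bases centred 37 kb downstream of the Cebpa start. Motifs were searched on both strands and are in capitals: CEBP (TTGCNNAA), a CEBP-ATF composite (TGATGNAA), CRE (TGACGTCA), AP-1 (TGANTCA), the ETS motif in the forms CCGGAA and GAGGAA, RUNX (TGTGGT), the GATA motif (AGATAA), an E-box (CAGCTG), kB, which is GGGA followed after any 4 bases by CC, and, for the promoters, the TATA box (TATAAA) and the CCAAT box (CCAAT).
Cebpa promoter, chr7:34818468-34818717, plus strand: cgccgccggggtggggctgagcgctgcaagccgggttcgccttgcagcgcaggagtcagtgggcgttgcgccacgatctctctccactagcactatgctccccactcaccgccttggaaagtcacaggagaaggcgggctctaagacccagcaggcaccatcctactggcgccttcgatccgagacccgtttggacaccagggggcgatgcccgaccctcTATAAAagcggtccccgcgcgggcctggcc
Cebpg promoter, chr7:34756012-34756261, minus strand: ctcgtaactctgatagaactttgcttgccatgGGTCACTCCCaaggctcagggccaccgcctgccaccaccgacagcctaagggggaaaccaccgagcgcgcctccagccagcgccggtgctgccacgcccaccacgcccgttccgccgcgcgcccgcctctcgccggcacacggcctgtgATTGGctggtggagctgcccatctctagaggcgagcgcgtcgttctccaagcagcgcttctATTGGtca
Distal enhancer, chr7:34855578-34855877, plus strand: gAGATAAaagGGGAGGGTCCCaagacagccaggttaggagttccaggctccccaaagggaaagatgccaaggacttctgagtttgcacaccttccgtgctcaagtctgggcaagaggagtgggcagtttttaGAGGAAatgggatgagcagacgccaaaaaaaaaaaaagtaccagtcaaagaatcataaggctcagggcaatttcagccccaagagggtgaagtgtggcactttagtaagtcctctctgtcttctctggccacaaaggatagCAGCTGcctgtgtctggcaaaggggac

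The Cebpa promoter held a TATA box and none of the other motifs. A TATA box was found in 12.5% of 21757 promoters of the same length. The Cebpg promoter held 2 CCAAT boxes, as written on the opposite strand, and a kB match, where 36.1% and 16.5% of promoters had the same motif. It had no TATA box. The Cebpa promoter overlaps an exon of the non-coding gene Gm45091, and the Cebpg promoter an exon of the non-coding gene Gm57192. The enhancer stretch lies in an intron of the non-coding gene ENSMUSG00000143237. This stretch was placed by its distance from the start site alone, and the extent of the enhancer was not mapped. It held a GATA, an ETS and an E-box match and 2 kB matches, which overlap each other on opposite strands. No RUNX or CEBP match was found in it. Among stretches of 300 bases in the 64985 bins with a peak, 15.4% held GATA, 27.7% ETS, 14.2% the E-box and 11.5% kB. Over its whole 5 kb the bin at 40 kb had 14 ETS matches against a median of 5, and 1.28% of the peak bins had as many. Of these, 7 lay in a run of pyrimidine repeats, the stretch of 300 bases with most matches in the bin, which overlaps an exon of the same non-coding gene and is not printed. A RUNX match occurred 7 times in the bin against a median of 4, and 17.4% of peak bins had as many. A CEBP match occurred once, below the median of 2. A match describes letters only and is not evidence of a bound factor.

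All loops of the locus fell between the bin at -145 kb and the bin at 60 kb. No loop crossed the border of 150 kb on either side (0 in the union), so no value depends on loops just outside it. The upstream end lies in Pepd, the gene of the peptidase prolidase, whose body holds the bins from -145 to -75 kb. The downstream end stops short of the other protein-coding genes in the window, Slc7a10 (an amino acid transporter, start bin at 70 kb) and Lrp3 (a receptor of the LDL receptor family, start bin at 95 kb). Both had 0 promoter loops in all 4 lists. The bins between 10 and 60 kb hold annotated non-coding genes but no protein-coding start site.

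**Figure D1:**
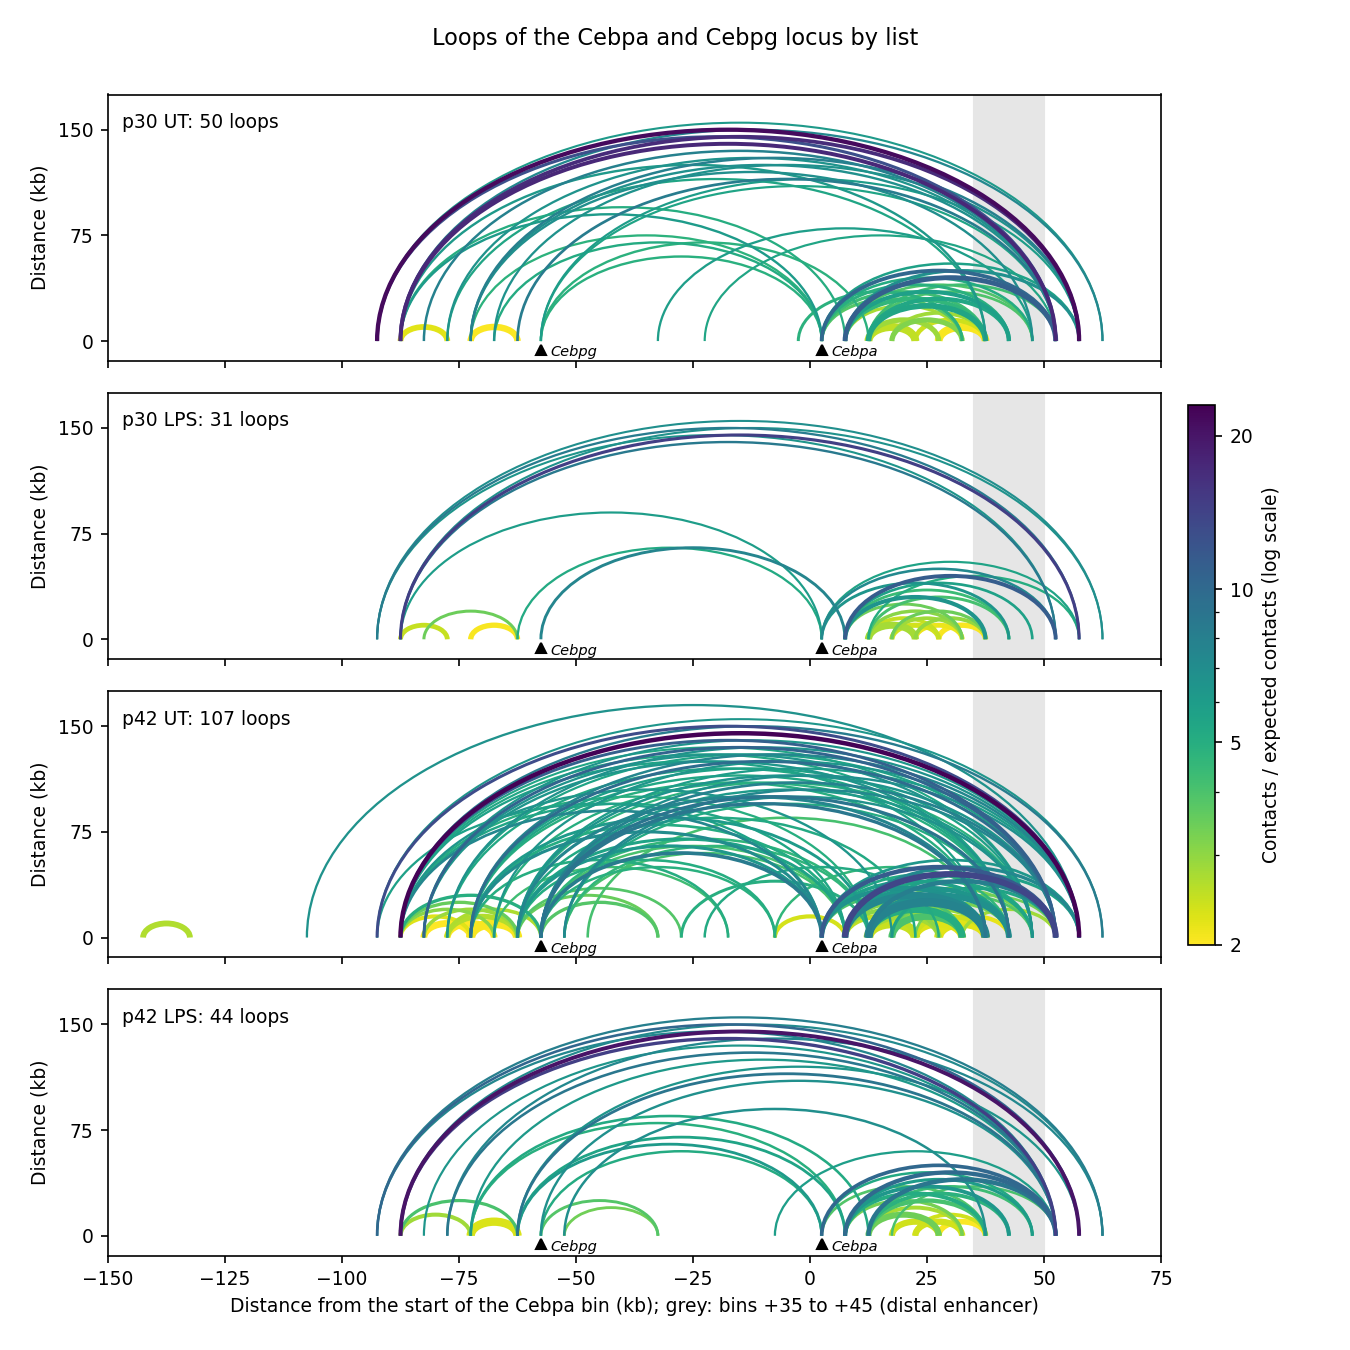
Loops of the locus in the 4 lists, with the distance from the start of the Cebpa bin on the x axis (kb), the distance between the joined bins as the arc height (kb), line width rising with contacts, and colour giving contacts over expected contacts on a log scale. The lists hold 50, 31, 107 and 44 loops, and the darkest arcs join bins in Pepd at -95 and -90 kb with bins at 50 and 55 kb, beyond the enhancer bins in grey.

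Of the 119 loops, 16 (13.4%) were in all 4 lists, a share near the 14.5% of the whole union. The p42 UT list held 107 of them (89.9%, against 73.8% of all loops), and 50 were in that list alone, as were 28.7% of all loops. The p30 UT list held 42% of the locus loops and 37.6% of all loops, and 5 locus loops were listed there alone, as were 6.98% of all loops. The p42 LPS list held 37% and 36.7%, with 4 in it alone, as were 5.97% of all loops. The p30 LPS list stood lowest with 26.1% of the locus loops, although it held 44.1% of all loops, and 0 were listed there alone, against 8.86% of all loops. Per 10000 loops of the list, the locus held 6.21 in p30 UT and 3.28 after LPS, 6.76 in p42 UT and 5.60 after LPS. Relative to its length, the p30 LPS list was thus sparse at this locus and the other lists were similar.

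Without LPS the locus loops of p42 outnumbered those of p30 by a ratio of 2.14, while the ratio over all loops was 1.97. With each list reduced to its 78591 loops of smallest q-value, the locus counts were 50 in p30 UT and 49 in p42 UT, a ratio of 0.98, so no untreated excess of p42 was left in lists of equal size. After LPS the p42 list had 1.42 times as many locus loops, against 0.831 over all loops, and with lists of equal size the counts were 28 and 44. LPS went with 0.62 times as many locus loops in p30 (1.18 over all loops) and with 0.411 times as many in p42 (0.497 over all loops). In lists of equal size these LPS ratios were 0.56 in p30 and 0.898 in p42. The p30 LPS count was the lowest of the 4 both as deposited and in lists of equal size.

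Loops in both p42 lists and in neither p30 list numbered 8, which is 6.72% of the locus against 5.53% of the union, and 1 (0.84% against 1.58%) was in both p30 lists alone. These shares were near those of the union. Of the 8, 5 had an end inside Pepd or Cebpg and the other end inside them or at 5 or 10 kb. The pair from -65 to 5 kb had 17 contacts in p42 UT and 15 after LPS. The pair from -75 to 10 kb had 16 and 13. The pair from -60 to -35 kb, which holds the Cebpg start, had 20 and 16. Their contacts in the p30 lists are unknown, because only significant pairs were deposited; the fewest contacts of any p30 loop at the same distances were 8 to 10. Loops in both UT lists and in neither LPS list numbered 10 (8.4% against 4.99% of the union), and 1 (0.84% against 1.33%) was in both LPS lists alone.

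**Figure D2:**
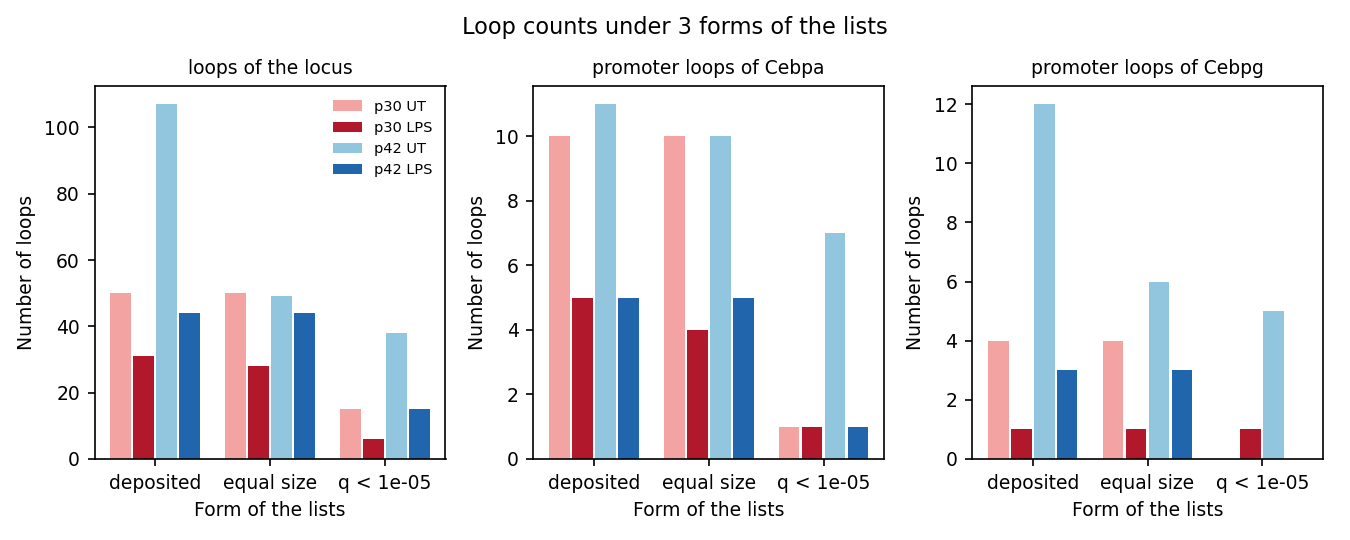
Number of loops of the locus, of the Cebpa promoter and of the Cebpg promoter (y axis) in the lists as deposited, in lists of 78591 loops each, and at a q-value under 1e-05, with 1 bar per list. The locus bar of p42 UT stands at 107 as deposited and at 49 in lists of equal size, next to 50 in p30 UT.

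The Cebpa promoter was next examined. Its bin had 10 loops in p30 UT and 5 after LPS, 11 in p42 UT and 5 after LPS, with 147, 57, 220 and 76 contacts in total. The LPS lists thus had fewer Cebpa promoter loops than the UT lists in both isoforms. In lists of equal size the counts were 10, 4, 10 and 5, and at a q-value under 1e-05 they were 1, 1, 7 and 1, so the lower count after LPS in p30 was not seen at the stricter threshold. Genes with a promoter loop had a median of 3 loops in p30 UT, p30 LPS and p42 LPS and of 5 in p42 UT. In p30 UT, 89.8% of these genes had fewer loops than Cebpa, and after LPS 60.7%, while in p42 the shares were 78.1% in UT and 66.4% after LPS. Over all genes with a promoter loop, 4948 had more loops in p30 LPS than in p30 UT and 2576 had fewer, so Cebpa was among the smaller group. In p42, 8700 genes had fewer loops after LPS, as Cebpa did, and 449 had more.

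Contacts of the Cebpa promoter with the enhancer bins were listed in every group, but not for every bin. The pair from 0 to 35 kb had 19 contacts in p30 UT (4.44 expected), 33 in p42 UT (4.98 expected) and 14 in p42 LPS (3.61 expected), and it was not listed in p30 LPS. The pair from 0 to 40 kb, which holds the position 37 kb downstream, had 17 contacts in p30 UT (3.49 expected), 16 in p30 LPS (2.48 expected) and 23 in p42 UT (3.99 expected), and it was missing from p42 LPS. The pair from 0 to 45 kb had 13, 15 and 12 contacts in p30 UT, p42 UT and p42 LPS and was missing from p30 LPS. Each listed pair thus had 3.88 to 6.62 times the expected contacts. The count in p42 UT was the highest of each pair, and that list also had the most modelled contacts. By the ratio to expected, p42 UT was highest at 35 kb only (6.62). At 40 kb p30 LPS was highest (6.46, against 5.77 in p42 UT), and at 45 kb p42 LPS (5.28, against 5.24 in p42 UT). The intervals of single pairs are wide: the 33 contacts in p42 UT have a 95% Poisson interval of 22.7 to 46.3, and the 14 in p42 LPS of 7.65 to 23.5. Missing pairs are not absent contacts, because at these distances the loops of p30 LPS had at least 8 contacts and those of p42 LPS at least 5.

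The bin at 5 kb, which holds the end of the Cebpa gene, was joined to all 3 enhancer bins in every list. With the bin at 35 kb it had 30 contacts in p30 UT and 28 after LPS, 53 in p42 UT and 27 after LPS. With the bin at 40 kb it had 28, 15, 35 and 25, and with the bin at 45 kb 13, 14, 20 and 18. The ratio to expected contacts ranged from 3.90 to 7.40 over these pairs. The highest was the pair from 5 to 35 kb in p42 UT, above 96.5% of the loops of that list at the same distance. Summed over both Cebpa gene bins and the 3 enhancer bins, 6 of 6 pairs were listed in p30 UT and 4 after LPS, 6 in p42 UT and 5 after LPS, with 120, 73, 179 and 96 contacts. Of the contacts at the 6 pairs shared in UT, 59.9% came from p42 (95% interval 54.1 to 65.5), against 56.3% over all loops shared in UT and 52.8% by the expected counts of these pairs. The interval holds the first of these values and not the second. At the 3 pairs shared after LPS the p42 share was 55.1% (46.0 to 64.0), and it held both the 49.1% of all loops and the 54.6% by expected counts. At the 4 pairs shared in p30 the LPS share was 45.3% (37.5 to 53.4), against 49.2% of all loops and 41.1% by expected counts. At the 5 pairs shared in p42 it was 38.1% (32.1 to 44.4), against 41.9% and 42.9%. A difference beyond these was not detectable at this depth in the last 3 comparisons.

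**Figure D3:**
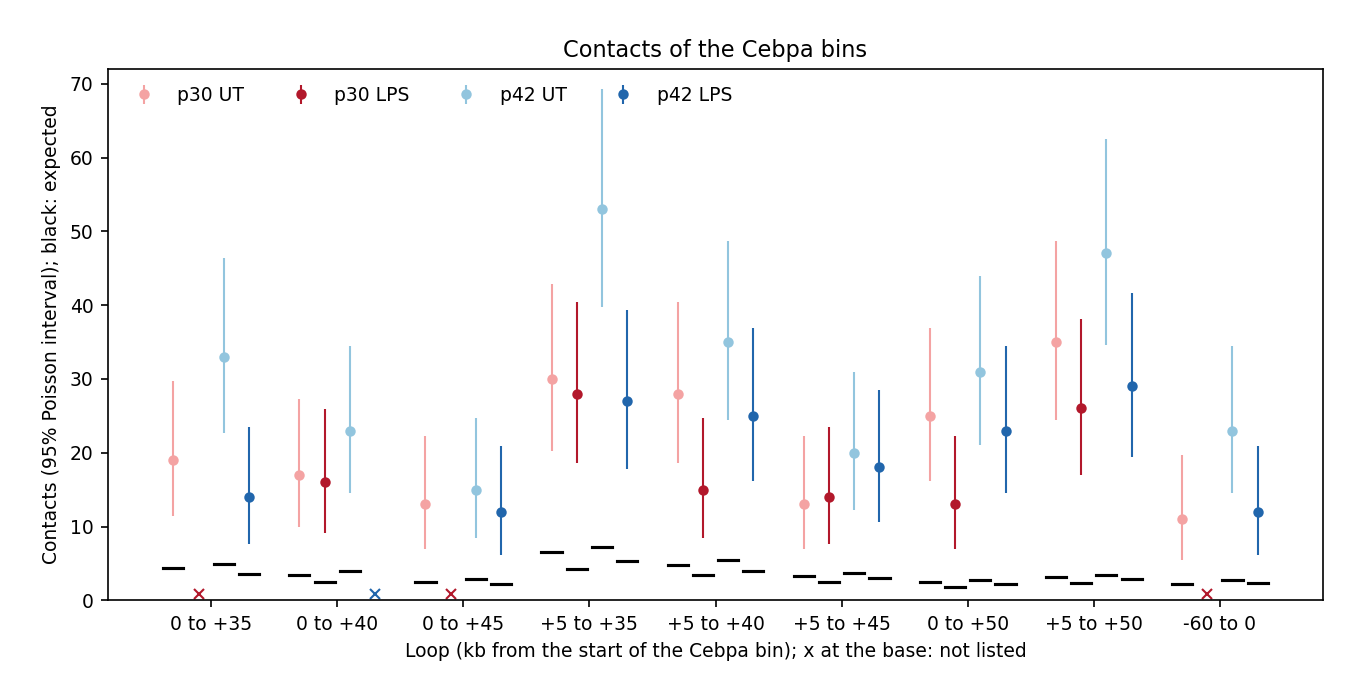
Contacts (y axis) of 9 bin pairs of the Cebpa gene bins in each list, with 95% Poisson intervals, the caller's expected contacts as black lines, and a cross where a pair was not listed. Every listed pair lies above its expected contacts, and p42 UT has the highest count of each pair shown, with the intervals of the lists overlapping at most pairs. Counts are not scaled for the depth of a list.

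The partner of the Cebpa promoter in all 4 lists was not an enhancer bin but the bin at 50 kb. This pair had 25 contacts in p30 UT (2.47 expected) and 13 after LPS (1.79 expected), 31 in p42 UT (2.69 expected) and 23 after LPS (2.26 expected). These are ratios of 10.1, 7.26, 11.5 and 10.2, each above 86.3% to 97.6% of the loops of the same list at that distance. The bin at 5 kb also met the bin at 50 kb in every list, with 35, 26, 47 and 29 contacts and ratios of 9.94 to 13.8. The ratio to expected was higher in every list for the bin at 50 kb than for the enhancer bins, which lie nearer and had larger expected contacts.

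The Cebpa promoter had further partners on both sides. The bin at 30 kb had 18 contacts in p30 UT and 21 in p42 UT and was in neither LPS list. The bin at 55 kb had 12 in p30 UT, 9 in p30 LPS and 14 in p42 UT. Upstream, the bin at -65 kb, inside Cebpg, had 10 contacts in p30 LPS, 18 in p42 UT and 15 after LPS. The bin at -75 kb had 10 in p30 UT and 18 in p42 UT, and that at -90 kb, in Pepd, had 11 in p30 UT, 9 in p30 LPS and 14 in p42 UT. The bins at -95 and -70 kb were listed once each, with 10 contacts in p42 UT and 11 in p30 UT.

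The start-site bins of Cebpa and Cebpg were joined to each other in 3 lists. This pair had 11 contacts in p30 UT (2.25 expected), 23 in p42 UT (2.73 expected) and 12 in p42 LPS (2.33 expected), and it was missing from p30 LPS. In p42 UT the ratio was 8.41, above 90.5% of the loops at that distance, and in the other lists 4.89 and 5.15. The log2 ratio of p42 to p30 contacts in UT was 1.06, with an adjusted p of 0.875 by the exact binomial test over all loops shared in UT. In p30 LPS the Cebpg bin met the Cebpa gene bin at 5 kb with 16 contacts, and this pair had 12 contacts in p42 UT.

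The Cebpg promoter had 4 loops in p30 UT and 1 after LPS, 12 in p42 UT and 3 after LPS, with 40, 16, 197 and 39 contacts. The p42 UT list thus held all 12 Cebpg promoter loops of the union, 6 of which were in no other list, and none of them was in all 4 lists. In lists of equal size the counts were 4, 1, 6 and 3. Of the genes with a promoter loop, 57.1% had fewer than Cebpg in p30 UT and 0% after LPS, 81.4% in p42 UT and 44.6% after LPS. In p42 UT its partners with most contacts were the Cebpa bin (23), the bin at -80 kb in Pepd (22) and, with 20 each, the bins at -90, -35 and 35 kb. The last of these is an enhancer bin of Cebpa, and the bins at 40 and 45 kb met Cebpg in the same list with 19 and 11 contacts. Their ratios to expected were 8.76, 9.02 and 6.14. None of the 3 pairs of Cebpg with the enhancer bins was in another list. In p42 LPS the partners were the bin at -35 kb (16 contacts), the Cebpa bin (12) and the bin at 50 kb (11). In p30 UT they were the Cebpa bin and the bin at 10 kb (11 each) and the bins at 50 and 55 kb (9 each).

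The Cebpg side was taken as the bins from -95 to -60 kb, of which those from -95 to -75 kb lie in Pepd. This choice was made after the values were seen. In the union were 16 pairs of these bins with the enhancer bins. The p42 UT list held 15 of them, p30 UT 3, and each LPS list 0. The 15 pairs had 8 to 20 contacts and ratios of 4.81 to 9.02. Of the same bins, 18 pairs with the bins at 50, 55 and 60 kb were in the union, and here the lists were closer: 14 in p30 UT and 6 after LPS, 16 in p42 UT and 13 after LPS. In lists of equal size, an alternative added after the values were seen, the pairs with the enhancer bins numbered 3 in p30 UT and 3 in p42 UT, so no excess of p42 UT was seen there. Those with the bins at 50 to 60 kb then numbered 14 in p30 UT and 5 after LPS, 9 in p42 UT and 13 after LPS. Contacts that land past the enhancer were thus listed in all groups. The 0 of p42 LPS depends on where the Cebpg side ends, since the next bin, at -55 kb, met the bin at 35 kb in p42 LPS alone, with 12 contacts and a ratio of 6.88.

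The pairs with the highest ratios at the locus joined bins in Pepd, on the Cebpg side, with the bins past the enhancer. The pair from -90 to 55 kb had 24 contacts in p30 UT and 18 after LPS, 31 in p42 UT and 26 after LPS, where 1.23 to 1.40 were expected. Its ratios were 17.1, 14.6, 22.8 and 20.3, the highest of the locus in the last 3 lists. The pair from -95 to 55 kb had 29, 10, 17 and 13 contacts, with a ratio of 21.6 in p30 UT (95% interval 14.5 to 31.0), the highest there. The pair from -90 to 50 kb had 26, 11, 16 and 20. These 3 pairs span 140 to 150 kb, enclose both genes and the enhancer, and were in all 4 lists, as were the pairs from -95 and -90 to 60 kb with 8 to 11 contacts.

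As long pairs often join sites of the insulator protein CTCF, its core motif (CC, 3 bases of any kind, AGG, 1 of any kind, GGC) was looked for in the locus bins, a choice made after the contacts were seen. It was found in the bins at -95 and -90 kb, on the plus strand, and in the enhancer bin at 35 kb, on the minus strand. The bins at 50, 55 and 60 kb held none of these letters. Of all peak bins, 18.5% held the motif. The stretches are printed on the strand of the motif.
Bin at -95 kb, exon of Pepd, chr7:34722722-34722751, plus strand: tgtgagctgCCTCCAGGTGGCaggctcaac
Bin at -90 kb, intron of Pepd, chr7:34726302-34726331, plus strand: gcttggtgaCCACTAGGGGGCccctcccaa
Bin at 35 kb, outside annotated genes, chr7:34851364-34851393, minus strand: tgtgttctgCCTCCAGGTGGCctggccccc
Further matches lay in the bins at -145, -135, 0 and 20 kb. No CTCF binding was measured in these libraries.

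Contacts at the same loop were compared between lists with a two-sided exact binomial test over all loops in both lists, with Benjamini-Hochberg adjustment over all of them. In the 4 comparisons 43, 21, 24 and 38 locus loops could be tested, and 0 passed an adjusted p of 0.05 in each. Over all loops 1.34% passed for p42 against p30 in UT, 0.742% for the same contrast after LPS, 0.317% for LPS against UT in p30 and 0.296% for LPS against UT in p42. At an unadjusted p under 0.05 the test found 2, 2, 3 and 1 locus loops, against 9.19%, 7.04%, 5.89% and 6.03% of all loops, in the same order. Counts were simulated from all loops shared in UT by the isoforms, with counting error only. The test recovered 22% of loops with a simulated 2-fold change and 78% with a 4-fold change, so most changes of 2-fold would be missed at this depth.

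In UT the loops with the smallest p were the long pairs with more contacts in p30. The pair from -95 to 55 kb had a log2 ratio of p42 to p30 of -0.77 (adjusted p = 0.271, exact binomial test), with 29 contacts in p30 and 17 in p42. The pair from -90 to 50 kb had -0.70 (adjusted p = 0.362, exact binomial test). The same pairs had the smallest p for LPS against UT in p30, a comparison that uses the same p30 UT list, with log2 ratios of -1.54 (adjusted p = 0.279, exact binomial test) and -1.24 (adjusted p = 0.610). After LPS the loops with the smallest p for p42 against p30 were the pair from -75 to -65 kb, in Pepd and Cebpg, with 39 contacts in p30 and 68 in p42 (adjusted p = 0.194, exact binomial test), and the pair from 10 to 25 kb with 25 and 47 (adjusted p = 0.276). For LPS against UT in p42 it was the pair from 10 to 35 kb with a log2 ratio of -1.24 (adjusted p = 0.575, exact binomial test).

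The loops were also described together. In UT, p42 contacts over p30 contacts had a median log2 ratio of 0.29 over the 43 locus loops and of 0.28 over all loops, with 16 locus loops above the share of p42 in all loops and 27 below. After LPS it was 0.36 over 21 locus loops against 0.00 over all loops, and 20 of the 21 lay above the share of p42 in all loops. For LPS against UT in p30 it was -0.41 over 24 locus loops against -0.09, with 22 of 24 below. Both of these comparisons use the p30 LPS list, and they are not independent. For LPS against UT in p42 it was -0.31 over 38 loops against -0.39, with 25 above and 13 below. Summed over the shared loops, 57.5% of the contacts after LPS came from p42 (95% interval 54.3 to 60.6), above the 49.1% of all loops, while the caller's expected counts of the same loops, which carry the coverage of their bins, gave 56.0%. In p30 the LPS share was 41.5% (38.7 to 44.4), below 49.2%, while the expected counts gave 41.9%. Relative to expected counts, p42 contacts over p30 contacts after LPS had a median log2 ratio of 0.16 at the locus and -0.09 over all loops, and LPS over UT in p30 had one of -0.01 at the locus and 0.13 over all loops. These differences between medians were not tested, and the loops share bins. Over the 16 loops in all 4 lists the ratio of contacts to expected was 3.78 in p30 UT and 3.63 after LPS, 3.92 in p42 UT and 3.90 after LPS, on 461, 314, 570 and 429 contacts.

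**Figure D4:**
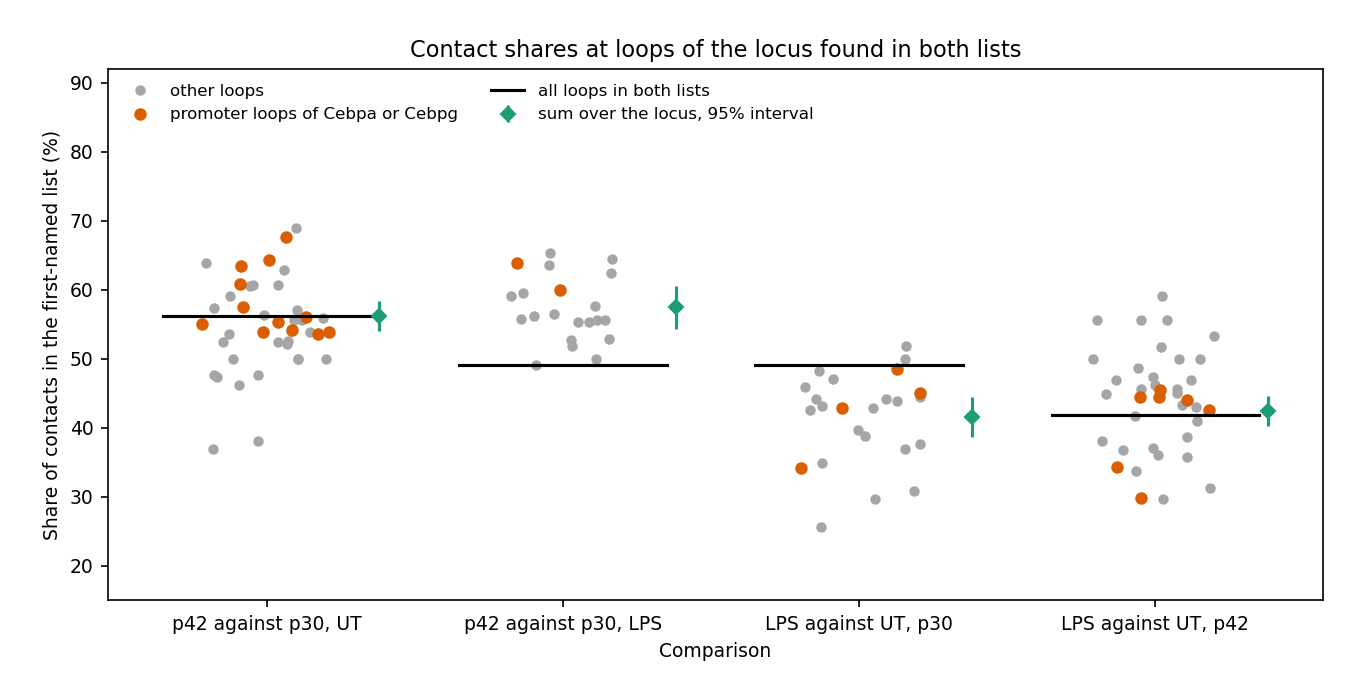
Share of contacts that came from the first-named list (y axis, percent) at each locus loop found in both lists, for the 4 comparisons, with promoter loops of either gene in orange. Black lines give the share over all loops of both lists and green diamonds the share summed over the locus with its 95% interval, which includes the line in UT and in p42 and excludes it after LPS (57.5% against 49.1%) and in p30 (41.5% against 49.2%).

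Coverage is the number of reads in a bin, and it was set relative to the mean of the peak bins of the same list. A log2 ratio between lists is given with its percentile among the 31321 bins with a peak in all 4 lists, as a description. The Cebpa bin had 2495 reads in p30 UT and 1768 after LPS, 3501 in p42 UT and 2226 after LPS, which is 1.04, 0.79, 1.2 and 1.15 times the mean of peak bins. After LPS it was thus lower in p30 than in p42, with a log2 ratio of p42 to p30 of 0.54 (percentile 96.0). The bin at 5 kb stood higher, at 1.74, 1.57, 1.95 and 1.99. The bin at 10 kb, past the end of the gene in the non-coding genes Gm35724 and Gm35665, had 1.49, 1.67, 2.04 and 2.58. It was the bin with the highest coverage of the locus in every list but p30 UT, and its log2 ratio of p42 to p30 was 0.46 in UT (percentile 91.0) and 0.63 after LPS (percentile 97.3).

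The enhancer bins followed another order. The bin at 35 kb had 1.93 times the mean of peak bins in p30 UT and 1.26 after LPS, 1.92 in p42 UT and 1.34 after LPS. The bin at 40 kb had 1.43, 1.06, 1.49 and 0.975. The isoforms were close in each treatment, and both LPS lists lay below both UT lists. The log2 ratio of LPS to UT at 35 kb was -0.62 in p30 (percentile 0.431) and -0.52 in p42 (percentile 2.16), and at 40 kb it was -0.43 (percentile 3.43) and -0.61 (percentile 0.999). Among bins of like coverage the percentiles at 35 kb were 0.295 and 2.20 and at 40 kb 3.19 and 0.516. The bin at 45 kb had a lower coverage, 0.747, 0.514, 0.732 and 0.639. Its log2 ratio of LPS to UT was -0.54 in p30 (percentile 1.17) and -0.20 in p42 (percentile 21.8). This order was not particular to the enhancer bins, since those at 25 and 30 kb had it too. Their log2 ratios of LPS to UT were -0.47 and -0.52 in p30 (percentiles 2.38 and 1.35) and -0.11 and -0.27 in p42 (percentiles 33.9 and 13.5). Between isoforms, the log2 ratio of the bins at 35 and 40 kb was between -0.12 and 0.09. At 45 kb the log2 ratio of p42 to p30 was -0.03 in UT (percentile 46.1) and 0.31 after LPS (percentile 88.2).

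The bins around Cebpg, from -80 to -60 kb, were higher in p42 in both treatments, as far as they were in all 4 lists. From 0 to 20 kb p42 was also above p30, but by less in UT than after LPS. In UT the log2 ratio of p42 to p30 was 0.21 at 0 kb (percentile 75.5) and 0.16 at 5 kb (percentile 70.4). It was 0.20 at 15 kb (percentile 74.6) and 0.02 at 20 kb (percentile 52.6). The Cebpg bin had 0.928 times the mean of peak bins in p30 UT and 0.853 after LPS, 1.22 in p42 UT and 1.2 after LPS. The bin at -65 kb, in the body of Cebpg, had 1.19, 1.13, 1.71 and 1.70. The bin at -75 kb in Pepd had 1.12, 0.86, 1.60 and 1.56. Both p42 lists were above both p30 lists at these 3 bins, and the LPS and UT lists of p42 were close. The log2 ratio of p42 to p30 was 0.39 in UT and 0.49 after LPS at the Cebpg bin (percentiles 88.2 and 94.9). It was 0.52 and 0.59 at -65 kb (percentiles 92.9 and 96.7), and 0.51 and 0.86 at -75 kb (percentiles 92.8 and 99.0). The bin at -80 kb had the same order, with log2 ratios of p42 to p30 of 0.39 in UT (percentile 88.2) and 0.66 after LPS (percentile 97.7). The 3 bins of Pepd from -95 to -85 kb did not share it in UT, where that ratio was -0.42 at -95 kb (percentile 7.73, or 16.8 among bins of like coverage), -0.37 at -90 kb (percentile 10.4, or 16.8) and -0.25 at -85 kb (percentile 20.5). With no replicate value, the spread of these ratios between repeated libraries is unknown.

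**Figure D5:**
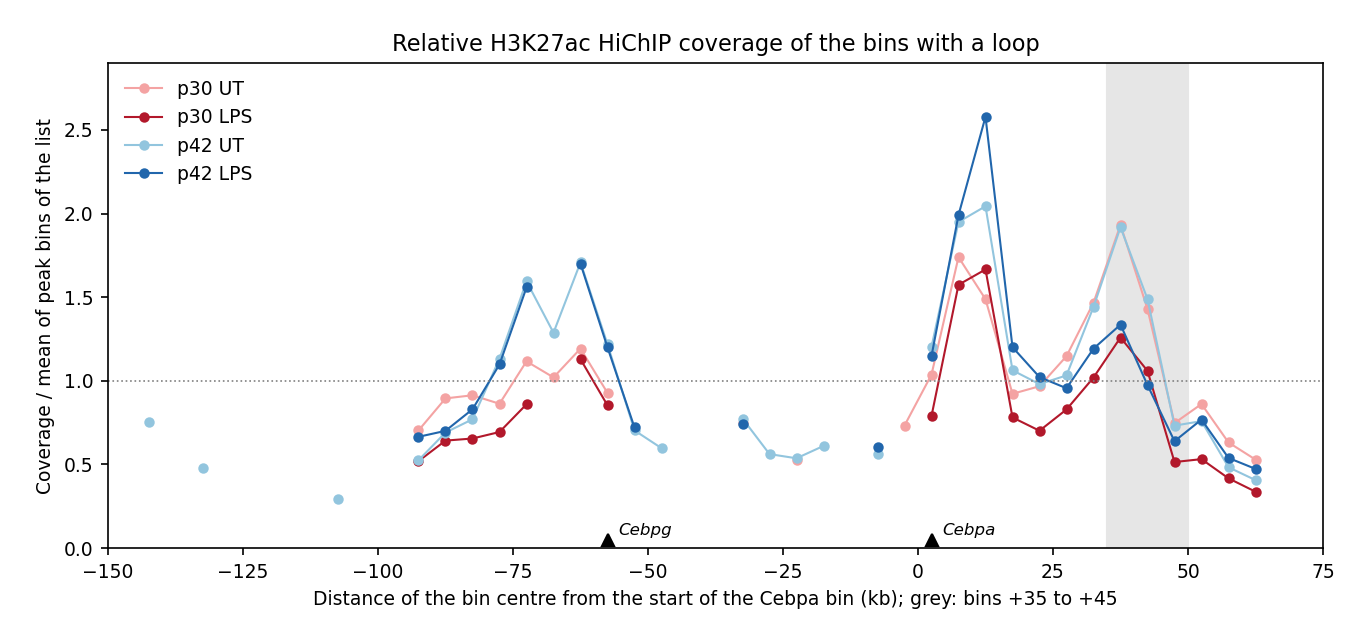
Coverage of each bin with a loop, relative to the mean of the peak bins of its list (y axis), against the distance from the start of the Cebpa bin (x axis, kb), with neighbouring bins joined and bins of no loop left out. Both p42 lists lie above both p30 lists at -80, -75, -65 and -60 kb and from 0 to 20 kb, where the UT lists are nearly level at 20 kb. The p30 UT list lies above p42 UT at -95 to -85 kb, and both LPS lists lie below both UT lists from 25 to 45 kb.

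The genes whose promoter contacts over the 4 lists were most like those of each member were found by the Euclidean distance over the lists between log2 values of promoter contacts, scaled by modelled contacts with 1 added. Nearest to Cebpa were Mbp (distance 0.315), Cuedc1 (0.361) and Madd (0.363). Nearest to Cebpg were 1810055G02Rik (0.459), Selenoi (0.471) and Ccdc153 (0.505). Cuedc1 had 162, 75, 214 and 82 promoter contacts over the same 4 lists, next to 147, 57, 220 and 76 at Cebpa. With 4 values per gene this likeness is a description.

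Lists of 15 genes each around CEBPA were counted in the same way, as background to its own locus. The first held 15 regulators and partners of CEBPA, such as Runx1, Spi1, Gata2 and Atf4, and the second 15 genes that CEBPA is known to activate, such as Csf3r, Mpo and Elane, and Cebpe is in both. All 15 regulators had more promoter loops in p42 UT than in p30 UT, and all 15 had fewer in p42 LPS than in p42 UT, as had 8312 and 8700 of the 10526 genes with a promoter loop. After LPS the p42 list held more loops at 5, fewer at 6 and as many at 4, while over all genes it held more at 2163, fewer at 5370 and as many at 2993. Relative to the lists' share of all contacts, loops with more contacts in p42 UT passed the exact binomial test at 2 of the 14 regulators that could be tested, Spi1, which encodes the ETS factor PU.1, and Erg, another ETS factor, against 2.6% of 7008 genes tested. Of the 14 targets with a promoter loop, 13 had more in p42 UT than in p30 UT and 1 as many. A loop at Mpo, the gene of myeloperoxidase, had more contacts in p42 UT than in p30 UT, which makes 1 of 10 targets tested. A loop at Mpo also had fewer contacts in p42 LPS than in p42 UT, 1 of 13 targets tested, against 0.723% of genes. A loop at Anxa1 had more contacts in p42 than in p30 after LPS, 1 of 10 targets tested, against 0.706% of genes. In p30, 8 targets had more loops after LPS than before, 3 had fewer and 3 as many, and the loops of 0 of the 8 that could be tested passed, where 0.716% of genes had a loop with more contacts after LPS and 0.143% one with fewer. In the directions in which 0 genes of either list passed, the shares of genes were 0.514% with fewer contacts in p42 UT than in p30 UT, 1.72% with fewer in p42 than in p30 after LPS, and 0.118% with more in p42 LPS than in p42 UT. With 1 or 2 genes in each case, nothing particular to the lists can be read from these counts.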

How the data were processed

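H3K27ac HiChIP of 8 libraries, 2 replicates per group, was analysed through the 4 interaction lists that the authors deposited, 1 pooled list per group. The study's methods name BWA-MEM 0.7.17 on the mouse build mm39, pairtools for ligation products and duplicates, and FitHiChIP for calling pairs of 5 kb bins; how replicates were pooled is not given in the sources used here. The lists have 26 columns without a header, named after the caller's table. The contact count and the coverage count of each bin were deposited by the authors without normalization. The expected count deposited is the caller's estimate for a pair from its distance and coverage, and the deposited contact probability is a fraction of the modelled contacts. The deposited coverage bias is a ratio of bin coverage to its class mean, the peak flag is another column of the deposited lists, and the authors' q-value, under 0.01 throughout, is adjusted from a binomial p-value. Contacts of pairs that did not pass are unknown, and a pair close to the q-value limit enters a list in the groups where its count happened to be larger.

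Loops were assigned with GENCODE M39 start sites; the lists' 21 chromosomes were found in GRCm39 with 0 loops beyond an end. Modelled contacts are the expected count over the probability. Contacts at loops in both lists were compared by exact binomial tests with the lists' share of all such contacts as the null; intervals are exact Poisson or Clopper-Pearson at 95% and cover counting error only. The test was tried on 59069 simulated loops with 200 changed, where 1.96% of its calls were false. Unchanged loops were drawn as Poisson counts around a mean common to both lists. That share therefore does not cover differences in depth, coverage or library. Genes and loops were named by rule: both members, genes with a start within 150 kb, the 3 genes of nearest contact pattern, pairs among the Cebpa, Cebpg and enhancer bins, promoter loops in all 4 lists and the 3 with most contacts per list. Members, gene lists and rules were chosen with earlier results of these data known. The classes of bins beyond the enhancer and on the Cebpg side, the CTCF, TATA and CCAAT motifs and the centred enhancer stretch were chosen after values or sequences were seen. Alternatives were lists of equal size, a stricter q-value, wider or narrower windows, other null shares, a minimum of 10 contacts, loops in all 4 lists, and other reference bins for coverage; bins of like coverage and classes of pairs in lists of equal size were added after seeing the data. Python 3.11.15 was used with pandas 2.3.3, numpy 2.4.6, scipy 1.17.1 and matplotlib 3.10.9.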

Additional observations from a re-analysis of the deposited data

Results flagged for a closer look

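The LPS change of relative coverage had opposite signs in p30 and p42 at 9 of the 20 locus bins that were in all 4 lists (45%), a share near the 45.8% of the 31321 peak bins. At all 9 it was lower in p30 and higher in p42, as at 22% of the peak bins; neighbouring bins are not independent, and the difference between the isoforms was not tested, since each group is 1 pooled list. At the bin at -95 kb the log2 ratio of LPS to UT was -0.44 for p30 and 0.34 for p42, a difference of 0.78. At -90 kb it was -0.48 and 0.02, a difference of 0.50, and at -85 kb -0.48 and 0.11, a difference of 0.59. In the Cebpa gene bin at 5 kb it was -0.14 and 0.03, a difference of 0.17. At 15 kb it was -0.24 and 0.18, a difference of 0.42, and at 20 kb -0.46 and 0.06, a difference of 0.52. At 50 kb it was -0.70 and 0.02, a difference of 0.71, at 55 kb -0.60 and 0.16, a difference of 0.76, and at 60 kb -0.65 and 0.22, a difference of 0.87. Among peak bins of like coverage, which as a group also had a lower ratio in p30 (median -0.17 at 60 kb) than in p42 (0.19), the bin at 60 kb stood at percentile 0.562 in p30 and 59.7 in p42.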

How the results depend on the processing

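No paired analysis was possible because each list pools both replicates of its group. Of 72 alternative values of the counts, ratios and tests, 48 stayed within 1.5 times the main value or on their side of the threshold, 23 moved by more and 1 turned its direction. That 1 was the UT ratio of p42 to p30 loops at the locus, 0.98 in lists of equal size, where the p42 ratio of LPS to UT moved to 0.898, the locus loops of p42 UT to 49 and its Cebpg promoter loops to 6. Some of the 48 could not have moved. No loop crossed the border of 150 kb, and the minimum of 10 contacts left the same loops tested in each comparison. At a q-value under 1e-05 the locus loops numbered 15 in p30 UT and 6 after LPS, 38 in p42 UT and 15 after LPS, which gave a p42 to p30 ratio after LPS of 2.5 and an LPS to UT ratio in p30 of 0.4. At that threshold Cebpa kept 1, 1, 7 and 1 promoter loops, and Cebpg 0 in p30 UT and, for p42, 5 in UT and 0 after LPS. With 1 bin on each side of the start site, Cebpa had 18, 11, 25 and 12, and Cebpg 4 in p30 LPS and, for p42, 31 in UT and 11 after LPS. The tests called 0 locus loops under each of 4 alternatives in each comparison; at an unadjusted p under 0.05 they found from 0 to 4, and the smallest adjusted p was 0.0737, for LPS against UT in p42 with the null share from modelled contacts. Among all loops the calls moved from 793 to 3007 with that null in UT and to 240 with expected contacts, from 342 to 731 and 19 after LPS, from 149 to 1033 and 25 in p30, and from 177 to 880 and 39 in p42. Of 124 other alternative values, 121 stayed and 3 moved, where a coverage percentile counted as moved if it entered or left the lowest or highest 2.5% and a number of listed pairs if it changed by over 1.5 times. By this rule percentiles nearer the middle could shift and still be counted as stayed, such as that of p42 against p30 in UT at 60 kb, 9.94 against 33.1 among bins of like coverage. The 3 moved each under an alternative added after seeing the data. The percentile of LPS against UT at -90 kb in p30 went from 2.18 to 2.98 among bins of like coverage. In lists of equal size the pairs of p42 UT that join the Cebpg side with the enhancer bins went from 15 to 3, and those with the bins at 50 to 60 kb from 16 to 9. Single pairs with 8 to 30 contacts limit what could be detected.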
